A study of Homo sapiens with 6 samples.

Results

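The 7 genes examined here are known for their part in neuroblastoma: MYC, MYCN and their partner MAX, the receptor tyrosine kinases ALK and RET, the RNA-binding protein gene LIN28B and the transcriptional cofactor gene LMO1. Their members were all probe sets of the array annotated to exactly 1 of these 7 symbols, 25 of 45278 probe sets with 1 symbol. MAX had 12 probe sets, MYCN 4, RET 3, ALK and LIN28B 2 each, and MYC and LMO1 1 each. Of the 25, 19 reached the level required for testing, a mean log2 value of 5.69 over all arrays, and the 6 others were all probe sets of MAX. Total RNA came from SH-SY5Y, an established human neuroblastoma line that has no MYCN amplification and carries an activating ALK mutation. In 3 samples the cells had been transfected with anti-miR-137, an inhibitor of hsa-miR-137, and in 3 with Anti-miR Negative Control #1, each at 15 pM as labelled and with Lipofectamine RNAiMAX, which all groups thus share. The transfection was made 24 hours after seeding and RNA was taken 72 hours after it. Each group was numbered 1 to 3, which pairs the labels of the groups but does not state what a number marks, and the labels do not say whether the samples were separate cultures, so each p-value here reflects array-to-array spread that may be technical.

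MYC and MYCN are transcription factors that bind DNA as dimers with MAX at E-box sequences and raise the expression of genes for growth, ribosome assembly and replication, while MXD, MXI1 and MNT proteins compete for MAX. In neuroblastoma, amplified MYCN marks aggressive tumours, ALK is the kinase most often mutated, and RET is the receptor for the GDNF family of neurotrophic factors, which act through GFRA co-receptors. LIN28B blocks the maturation of let-7 microRNAs, and LIN28B, MYC and MYCN mRNAs are themselves reported let-7 targets. LMO1 is a LIM-domain cofactor, and variants near it are linked to the risk of neuroblastoma.

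The microRNA that the treatment inhibits and the let-7 microRNAs on which LIN28B acts are printed here. The first defines the comparison, and the others belong to the pathway of a member that differed between replicates 3 and 1. Sequences are from RefSeq (GRCh38.p14), 5′ to 3′, with the seed, bases 2 to 8, in capitals. The seed of hsa-miR-137-3p (chr1:98046091-98046113, minus strand) was found in 1 of 2370 mature names, its own. The let-7 seed was shared by 11 names, 8 of them let-7 names, and hsa-let-7a-5p (chr9:94175962-94175983, plus strand), hsa-let-7i-5p (chr12:62603691-62603712, plus strand) and hsa-miR-98-5p (chrX:53556299-53556320, minus strand) are shown.
hsa-miR-137-3p: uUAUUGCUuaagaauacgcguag
hsa-let-7a-5p: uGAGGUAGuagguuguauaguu
hsa-let-7i-5p: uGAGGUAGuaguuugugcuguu
hsa-miR-98-5p: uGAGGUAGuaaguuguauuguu
The seed of hsa-miR-137-3p and the let-7 seed differ in their letters. Levels of the microRNAs themselves were not measured on these arrays.

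The arrays were alike in overall signal, with medians of 6.39 to 6.43 and RNA integrity numbers of 9.5 to 9.8, the lowest in anti-miR-137 replicate 1. Of 12 listed markers of the noradrenergic, sympathetic type of neuroblastoma, the 11 with a usable probe set all reached the level for testing. HAND2, DBH, CHGA and TH were among them. So did 12639 of all 18244 genes, so reaching the level says little by itself about the type of cell. Of the markers of the mesenchymal type of neuroblastoma, 5 of 9 reached it, VIM among them. Of the markers of other cell types, 0 of 4 immune and 0 of 4 epithelial genes with a probe set reached it, while it was reached by 2 of 3 endothelial genes (PECAM1 and VWF, log2 values of 6.02 to 6.37) and 1 of 3 hepatocyte genes (TTR). Because each probe set hybridises with its own efficiency, levels are compared between arrays and not between probe sets. In RNA from a whole culture, fewer cells of a kind and less RNA per cell cannot be told apart.

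No probe set of the 7 genes passed the test between anti-miR-137 and control cells. Of the 19 tested probe sets, 0 passed an adjusted p under 0.05 in limma, against a background of 0 of 27514 probe sets (0%), and 0 had an unadjusted p under 0.05, against 685 of 27514 (2.49%). Values were higher in anti-miR-137 cells for 8 and lower for 11, with a median log2 difference of -0.05 against -0.0015 over all tested probe sets. The median absolute difference was 0.061 log2 units, against 0.054 over all tested probe sets. For all 19, the 95% confidence interval of the difference lay within 0.5 log2 units of 0, with a widest bound of 0.45 for LIN28B. Every adjusted p was 1.00 in limma, and 0 of 19 passed when replicate number was added as a block. With the block, 0 had an unadjusted p under 0.05. The smallest were 0.0542 for MYCN 11719870_s_at (95% confidence interval -0.29 to 0.0036) and 0.0552 for RET 11733418_at and 11733419_a_at, all lower in anti-miR-137 cells (adjusted p = 0.800 each, limma).

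MYC, the broadly acting member of the family, measured 11.43, 11.37 and 11.06 (log2) in anti-miR-137 replicates 1, 2 and 3, against 11.48, 11.25 and 11.07 in the control replicates. Each replicate 3 array was lowest in its group, and the groups overlapped. The difference was 0.02 log2 units with a standard error of 0.13 (95% confidence interval -0.29 to 0.33). MYCN, the member amplified in other neuroblastomas, measured 9.01, 8.90 and 8.59 on its brightest probe set (11719869_a_at) in anti-miR-137 cells, against 8.98, 8.95 and 8.80 in control cells. The lowest of these 6 values belonged to anti-miR-137 replicate 3, the groups overlapped, and the difference was -0.07 (-0.35 to 0.20). The other 3 probe sets of MYCN gave log2 differences of -0.14 (11719870_s_at), 0.06 (11750948_a_at) and 0.06 (11719868_a_at), so its probe sets did not share a direction.

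MAX, the obligate partner of both, measured 10.21, 10.12 and 10.09 on its brightest probe set (11740748_s_at) in anti-miR-137 cells, against 10.15, 10.08 and 10.07 in control cells. The 6 values spanned 0.14 log2 units, and the difference was 0.04 (-0.12 to 0.19). The 5 other tested probe sets of MAX gave log2 differences from -0.13 to 0.02, 4 of them below 0. The 6 dim probe sets of MAX had mean log2 values from 4.09 to 5.38, below the 5.69 required, while the dimmest that was tested, 11754160_x_at, averaged 6.01. In a fit of all 45278 probe sets these 6 gave differences from -0.15 to 0.01, each with an adjusted p of 1.00 in limma. On one of them, 11733722_x_at, all anti-miR-137 values (5.11, 5.05 and 5.03) were below all control values (5.15, 5.18 and 5.12), as in 1312 of the 45278 probe sets (2.9%).

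ALK, the receptor for the ALKAL ligands, measured 9.22, 9.15 and 9.45 on probe set 11750678_a_at in anti-miR-137 cells, against 9.16, 9.16 and 9.31 in control cells. The difference was 0.06 (-0.16 to 0.28), and the other ALK probe set, 11740853_a_at, gave 0.05 (-0.13 to 0.24). On both probe sets the highest value belonged to anti-miR-137 replicate 3, and the groups overlapped. RET was measured by a probe set annotated to the transcript of its long isoform (11729917_at), one annotated to that of its short isoform (11733418_at) and one annotated to another transcript (11733419_a_at). The long-isoform probe set read 12.30, 12.30 and 12.36 in anti-miR-137 cells, against 12.33, 12.26 and 12.37 in control cells, and all 6 values lay within 0.11 log2 units.

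The short-isoform probe set of RET read 10.17, 10.03 and 10.24 in anti-miR-137 cells, against 10.24, 10.19 and 10.44 in control cells, a difference of -0.14 (-0.35 to 0.08). Probe set 11733419_a_at of RET read 6.97, 6.90 and 6.96 in anti-miR-137 cells, against 7.07, 6.97 and 7.27 in control cells. It was the 1 tested member probe set whose groups did not overlap, all anti-miR-137 values being lower, as were those of 3.23% of all tested probe sets, and 6.9% did not overlap in either direction. Its difference of -0.16 (-0.37 to 0.04) had an unadjusted p of 0.0996 in limma, and it ranged from -0.23 to -0.08 with 1 array left out, the smallest without control replicate 3. The long-isoform probe set gave 0.01 (-0.14 to 0.16), and the difference between the probe sets of RET was not tested.

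LIN28B measured 9.32, 9.83 and 9.69 on probe set 11720293_s_at in anti-miR-137 cells, against 9.41, 9.86 and 9.78 in control cells. In both groups replicate 1 was the lowest array, and the difference was -0.07 (-0.45 to 0.31), one of the widest intervals among the members. Its other probe set, 11720292_at, gave -0.08 (-0.45 to 0.28). LMO1 measured 9.80, 9.72 and 9.81 in anti-miR-137 cells, against 9.79, 9.97 and 9.78 in control cells, a difference of -0.07 (-0.24 to 0.11). Here the replicate 2 arrays lay furthest apart, on opposite sides of the rest.

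**Figure D1:**
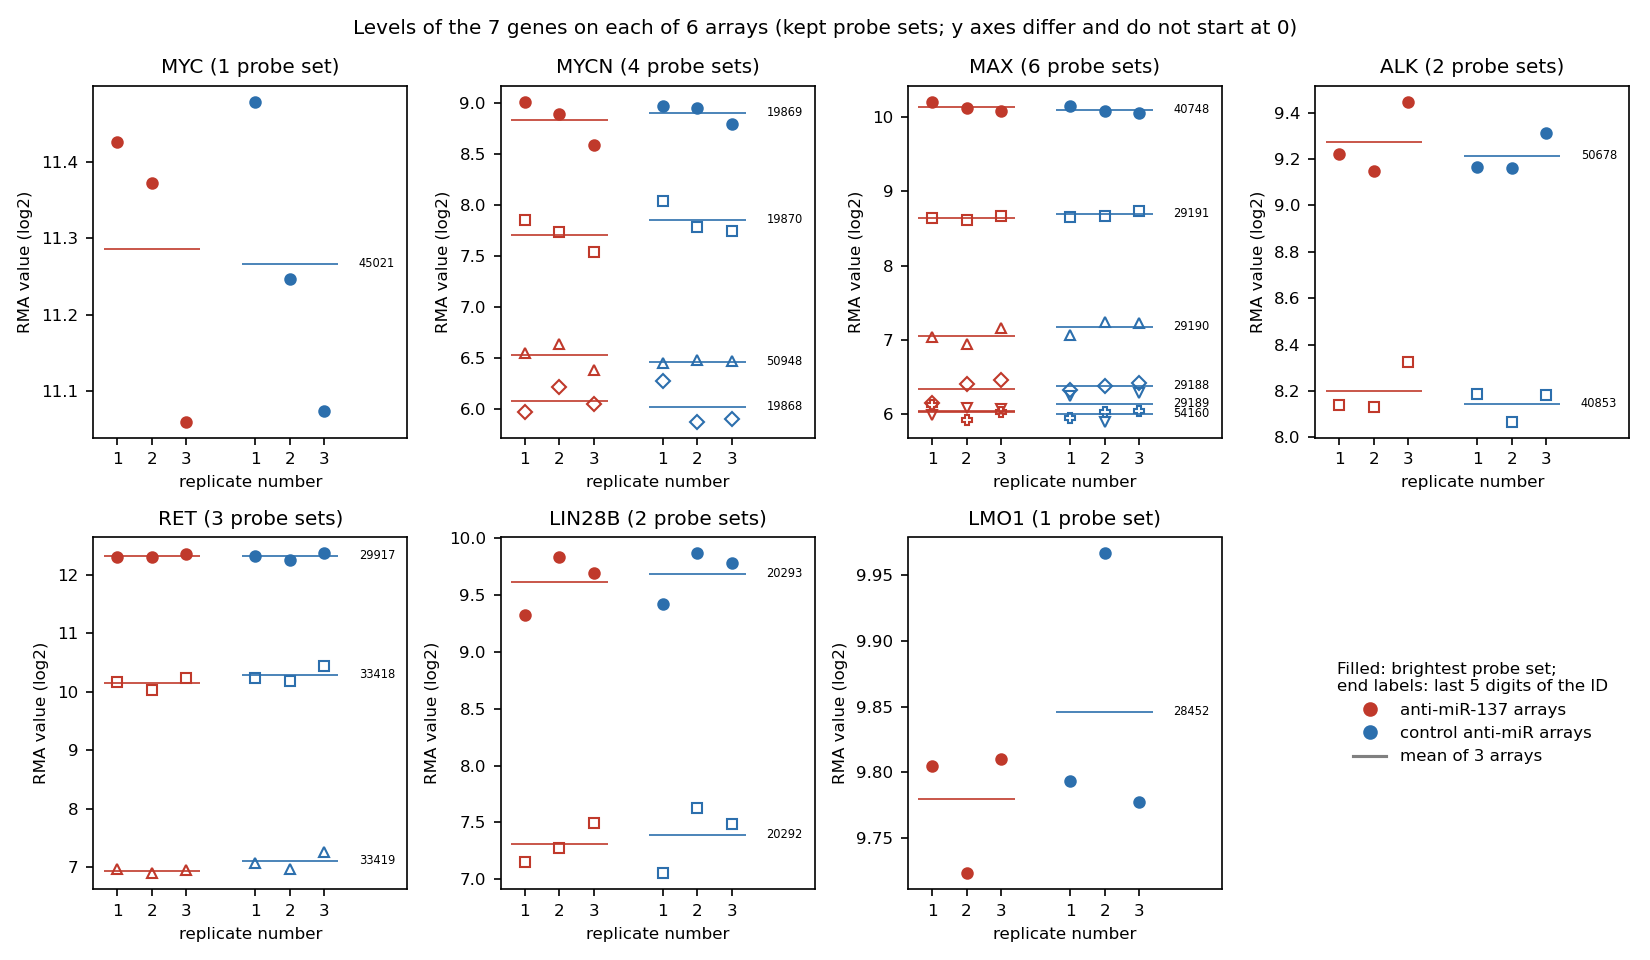
Log2 RMA values (y axes, which differ between panels) of the 19 tested probe sets of the 7 genes on each of the 6 arrays, anti-miR-137 in red on the left and control in blue on the right of each panel, with replicate number along the x axis and horizontal lines for the means of 3 arrays. Same-numbered arrays are low together for MYC in replicate 3 (11.06 and 11.07) and for LIN28B in replicate 1 (9.32 and 9.41 on its brightest probe set), and the group means lie close together.

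Between replicates 3 and 1, 2 of the 7 genes differed past the threshold, while the test over all 3 numbers passed 0 of 19 probe sets. MYC was lower in replicate 3 than in replicate 1, and LIN28B was higher in replicate 3 than in replicate 1 on 1 of its 2 probe sets. These calls come from a fit with treatment and replicate number as terms, in which 2 of 19 member probe sets (10.5%) passed for replicate 3 against replicate 1, beside 1498 of 27514 probe sets in all (5.44%). With so few members the counts are small, and many other transcripts differed between these arrays. For replicate 2 against replicate 1, 0 of 19 passed in limma (3 at an unadjusted p under 0.05, beside 12.1% of all), where 0 of 27514 (0%) did, and for replicate 3 against replicate 2, 0 of 19 passed (4 at an unadjusted p under 0.05, beside 14.9% of all), where 1 of 27514 (0.00363%) did. Over all 3 numbers at once, the moderated F test passed 0 of 19 (7 at an unadjusted p under 0.05, beside 21.6% of all) and 3 of 27514 (0.0109%).

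MYC averaged 11.07 in the 2 replicate 3 arrays, against 11.45 in the 2 replicate 1 arrays. The log2 difference was -0.39 with a standard error of 0.075 (adjusted p = 0.0483, limma), a level 0.766 times that of replicate 1. It was seen in both treatments, -0.37 with anti-miR-137 and -0.40 with the control inhibitor. As a background count, 1.94% of all tested probe sets were called lower in replicate 3. With dim probe sets kept in the test, the adjusted p was 0.117, and leaving out any 1 of the 4 arrays of replicates 1 and 3 (both anti-miR-137 and both control arrays) gave log2 differences of -0.44 to -0.33 with adjusted p of 0.128 to 0.295.

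MYCN showed values in the same direction without passing. Its brightest probe set averaged 8.70 in replicate 3, against 9.00 in replicate 1, a log2 difference of -0.30 (adjusted p = 0.0934, limma), and in both treatments replicate 3 was the lowest array. Probe set 11719870_s_at averaged 7.64 in replicate 3, against 7.95 in replicate 1, a difference of -0.31 (adjusted p = 0.0703). Both passed with the filter set at the 60th percentile of probe set means, with adjusted p of 0.0409 for 11719869_a_at and 0.0266 for 11719870_s_at, and neither passed with no filter, with adjusted p of 0.189 and 0.159 in the same order. With 1 array left out, the difference of 11719869_a_at ranged from -0.40 to -0.20, the smallest without anti-miR-137 replicate 3, and that of 11719870_s_at from -0.35 to -0.26. The 2 dimmer probe sets of MYCN gave -0.07 and -0.15, with replicate 3 values that overlapped those of replicate 1.

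LIN28B averaged 9.73 in replicate 3, against 9.37 in replicate 1, on probe set 11720293_s_at. The log2 difference was 0.37 with a standard error of 0.066 (adjusted p = 0.0422, limma), a 1.29-fold higher level, and it was 0.37 with anti-miR-137 and 0.36 with the control inhibitor. The share of all tested probe sets called higher in replicate 3 was 3.51%. Replicate 2 averaged 9.85, against 9.37 in replicate 1, a difference of 0.48 (adjusted p = 0.178), so replicate 1 stood below both other numbers. The suffix of this probe set, _s_at, marks probes that can match more than 1 gene. It is also on MYCN 11719870_s_at, on MAX 11740748_s_at and 11729191_s_at, and on MAX 11733721_s_at, which was too dim to test. The suffix _x_at, on MAX 11729189_x_at, 11754160_x_at and 11733722_x_at, likewise marks probes that can match more than 1 gene. The other LIN28B probe set, 11720292_at, had a like difference of 0.39 with a standard error of 0.12 that did not pass (adjusted p = 0.116). That difference ranged from 0.26 to 0.53 with 1 array left out, the smallest without control replicate 1. Without the filter the adjusted p of 11720293_s_at was 0.109, with quantile or cyclic loess normalization on top it was 0.0541 and 0.0523, and with any 1 of the 4 arrays of replicates 1 and 3 left out it was 0.149 to 0.276, with log2 differences of 0.35 to 0.39.

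**Figure D2:**
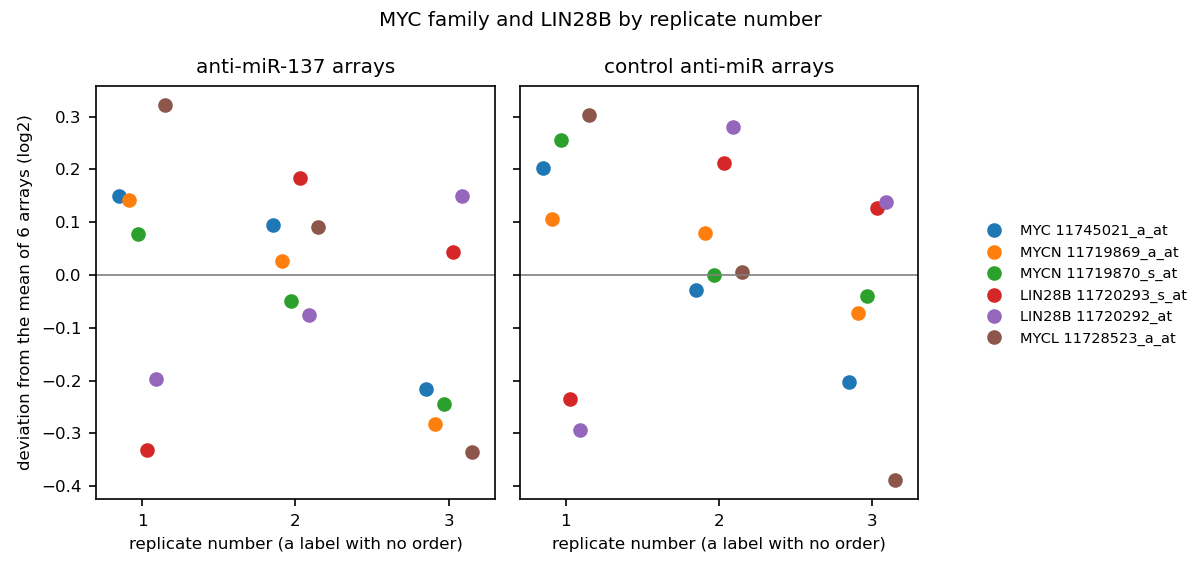
Deviation of each array from the mean of its 6 arrays (y axis, log2 units) for MYC, 2 probe sets of MYCN, both of LIN28B and the family member MYCL, by replicate number (x axis), in anti-miR-137 arrays on the left and control arrays on the right. MYC, MYCN and MYCL are below their means in both replicate 3 arrays, and both LIN28B probe sets are below theirs in both replicate 1 arrays.

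The kinases, MAX and LMO1 did not pass between replicate numbers. ALK averaged 9.38 in replicate 3, against 9.19 in replicate 1, on its brightest probe set, a difference of 0.19 (adjusted p = 0.168, limma), and its other probe set gave 0.09 (adjusted p = 0.486). The 3 probe sets of RET gave 0.05, 0.13 and 0.09, each with an interval that included 0. For replicate 3 against replicate 2, ALK 11750678_a_at gave 0.22 (0.05 to 0.40, adjusted p = 0.269, limma) and RET 11733418_at gave 0.23 (0.05 to 0.40, adjusted p = 0.258). For replicate 3 against replicate 1, the brightest MAX probe set gave -0.10 (adjusted p = 0.362), while the 5 others ranged from -0.0033 to 0.20. The largest, of 11729188_a_at, had an interval of 0.00051 to 0.40 (adjusted p = 0.185, limma). LMO1 gave -0.01 (-0.23 to 0.22). In 12 of the 19 member probe sets both replicate 3 values lay on 1 side of both replicate 1 values (63.2%), as in 60.6% of all tested probe sets.

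**Figure D3:**
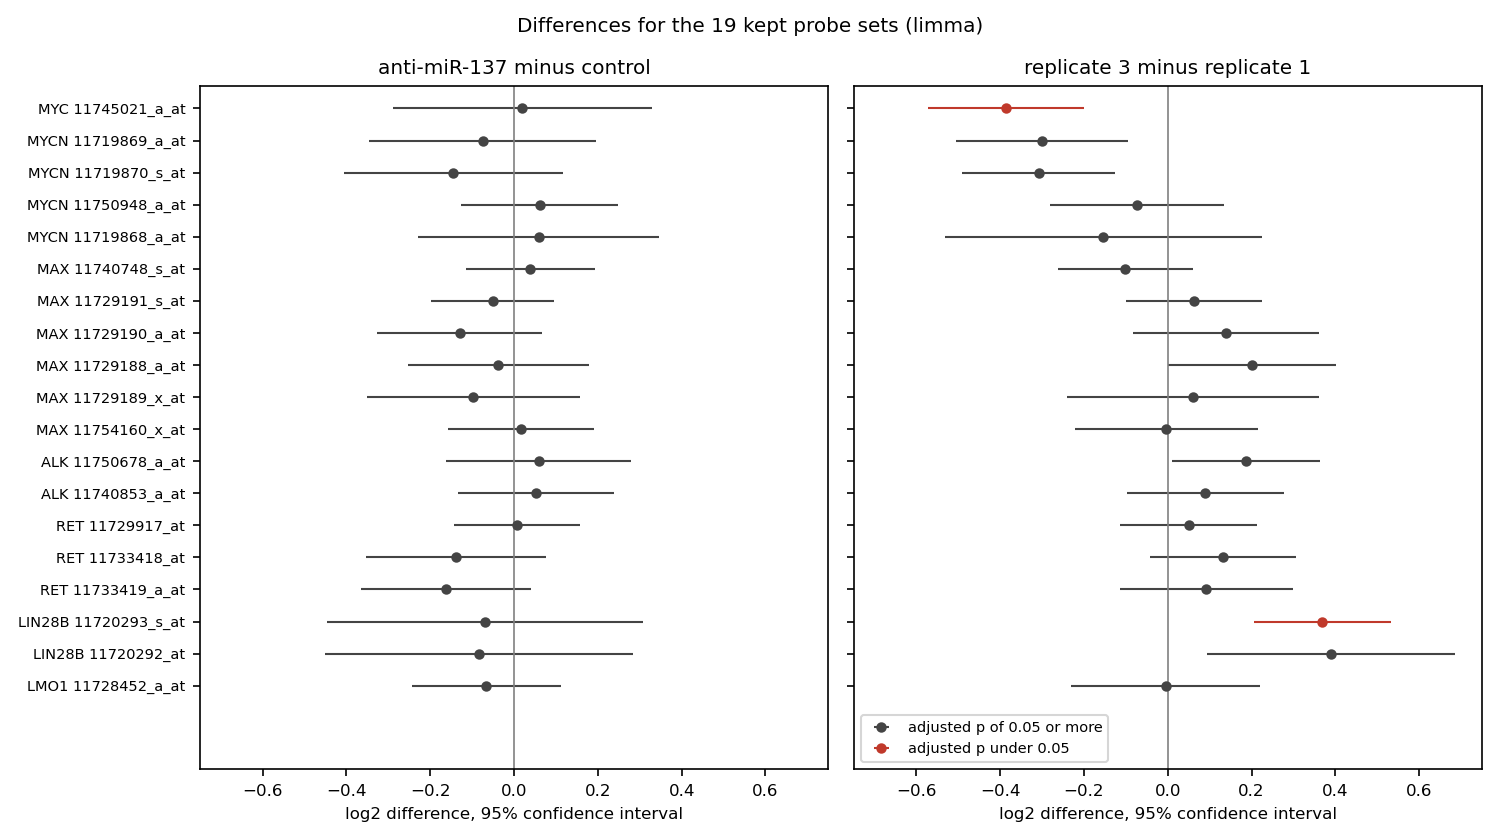
Log2 differences with 95% confidence intervals (x axes) for the 19 tested probe sets (rows), anti-miR-137 minus control on the left and replicate 3 minus replicate 1 on the right, with adjusted p under 0.05 in red. All intervals on the left include 0, and on the right MYC (-0.39) and 1 LIN28B probe set (0.37) are called.

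The other genes of these pathways were followed with 1 probe set per gene, the brightest, in lists chosen with earlier results of these data known. Of the genes called below, MCM4, TFRC, ETV5, DOK4 and TIAM1 were read by _s_at probe sets and MCM2 by an _x_at one. Such probe sets can match more than 1 gene, as can the _x_at probe set of GDF15. For treatment, 0 genes of the 8 lists passed in limma, where 0 of 12639 genes (0%) did. For replicate 3 against replicate 1, 5.37% of the 12639 genes were called, 2.96% higher and 2.41% lower, with a median log2 difference of -0.01. With any 1 of the 4 arrays of replicates 1 and 3 left out, 0 of 27514 probe sets passed, so each call of replicate 3 against replicate 1 in these lists is lost with any of them. List medians and calls were the same in direction after quantile and cyclic loess normalization, except that DOK4 and TIAM1 were no longer called.

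Among regulators of the wider MYC and MAX network, 10 of 10 genes were tested, with 0 called higher and 1 called lower in replicate 3. The values of 10 of 10 were lower, with a median of -0.11, but those of MXD1 (-0.0024), MLX (-0.0062) and MGA (-0.018) were near 0. MYCL, the other MYC family gene, measured 7.73, 7.50 and 7.07 in anti-miR-137 cells, against 7.71, 7.41 and 7.02 in control cells, numbered 1 to 3. Both replicate 3 arrays were lowest, and the difference of -0.68 with a standard error of 0.066 between replicate 3 and replicate 1 passed (adjusted p = 0.0240, limma). The MYC antagonist MXI1 (-0.25, adjusted p = 0.0901) and the glucose-responsive factor MLXIPL (-0.27, adjusted p = 0.114) did not pass. For treatment, the antagonists MNT (-0.09) and MXD3 (0.08) had the smallest p of the list.

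Among MYC and MYCN target genes, 29 of 32 were tested, 3 were called higher and 0 lower in replicate 3, and 25 values were higher and 4 lower, with a median of 0.09. MCM2, a subunit of the replicative helicase, averaged 10.42 in replicate 3, against 9.78 in replicate 1 (log2 difference 0.63, adjusted p = 0.0249, limma). MCM4, of the same helicase, differed by 0.50 (adjusted p = 0.0292) and TFRC, the transferrin receptor, by 0.38 (adjusted p = 0.0409). The helicase genes are also S phase genes. For treatment, ODC1, which starts polyamine synthesis (-0.11), and the mitochondrial chaperone HSPD1 (-0.12) had the smallest p.

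Ligands and co-receptors of RET gave no call between replicate numbers. Only 4 of 10 were tested, and GFRA1, the co-receptor for GDNF, was among those too dim. The co-receptor GFRA3, which binds artemin, read 7.32, 7.48 and 7.07 in anti-miR-137 cells, against 7.27, 7.67 and 7.04 in control cells, highest in replicate 2 and lowest in replicate 3 of both groups (replicate 3 against replicate 1, -0.24, adjusted p = 0.148, limma). The ligands NRTN (-0.21, adjusted p = 0.138) and ARTN (-0.29, adjusted p = 0.161) did not pass either. For treatment, ARTN gave 0.09 (unadjusted p = 0.503, limma). GDF15, the ligand that reaches RET through GFRAL, read 6.88, 6.97 and 6.92 in anti-miR-137 cells, against 6.60, 6.68 and 6.70 in control cells. Its groups did not overlap, as in 6.9% of all tested probe sets, and it had an unadjusted p of 0.00404 and an adjusted p of 1.00 in limma. Of all tested probe sets, 2.49% had an unadjusted p under 0.05. GFRAL itself was too dim to test, with a mean log2 value of 3.42.

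Of the adaptors and feedback genes downstream of RET and ALK, 17 of 20 were tested, 2 were called higher and 0 lower in replicate 3, with a median of -0.0013. ETV5, an ETS factor induced by RET and by ALK signalling, averaged 9.59 in replicate 3, against 9.21 in replicate 1 (0.37, adjusted p = 0.0413, limma). The RET adaptor DOK4 averaged 11.63, against 11.06 (0.56, adjusted p = 0.0456). GRB10, another adaptor, gave -0.18 (adjusted p = 0.161). The adaptor IRS1 (0.14) and the feedback inhibitor SPRY4 (0.17) had the smallest p for treatment.

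Of the ligands and relatives of ALK, 4 of 8 were tested and 0 passed between replicate numbers. Both ALKAL1 and ALKAL2 were too dim to test. The growth factor PTN gave -0.19 (adjusted p = 0.345, limma), the related receptor LTK -0.12 (adjusted p = 0.448) and the growth factor MDK -0.16 (adjusted p = 0.333) for replicate 3 against replicate 1. For treatment, MDK gave -0.08 (unadjusted p = 0.378, limma) and LTK 0.08 (unadjusted p = 0.424), and neither passed.

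In the LIN28 and let-7 pathway, 11 of 16 genes were tested, 0 were called higher and 1 lower in replicate 3, with a median of -0.11. LIN28A, the paralog of LIN28B, was too dim to test. The growth factor receptor gene IGF1R averaged 10.36 in replicate 3, against 10.82 in replicate 1 (-0.46, adjusted p = 0.0414, limma). HRAS (0.32, adjusted p = 0.0703) and the chromatin protein gene HMGA2 (-0.38, adjusted p = 0.0906) lay on opposite sides of 0 without passing. For treatment, DICER1, which cuts microRNA precursors, gave -0.11 (unadjusted p = 0.144, limma) and ARID3B -0.15 (unadjusted p = 0.173), and neither passed.

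Of the relatives and partners of LMO1, 13 of 18 were tested and 0 passed, with a median of -0.02. LMO3, its close relative, read 9.62, 9.42 and 9.63 in anti-miR-137 cells, against 9.60, 9.30 and 9.55 in control cells, lowest in replicate 2 of both groups. The sympathetic factor ISL1 gave -0.16 (adjusted p = 0.184, limma) and SSBP2, which binds the LMO partner LDB1, -0.23 (adjusted p = 0.112) for replicate 3 against replicate 1. For treatment, LYL1, a helix-loop-helix partner of LMO proteins, gave 0.18 (unadjusted p = 0.0579, limma) and SSBP2 -0.08 (unadjusted p = 0.433), and neither passed.

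Of other genes linked to neuroblastoma, 20 of 22 were tested, 3 were called higher and 0 lower in replicate 3, with a median of 0.04. The survivin gene BIRC5 (0.44, adjusted p = 0.0353, limma), the mitotic kinase AURKA, which stabilises MYCN protein (0.42, adjusted p = 0.0360), and the Rac activator TIAM1 (0.35, adjusted p = 0.0453) were the 3. BIRC5 and AURKA are also mitosis genes. TERT, the catalytic subunit of telomerase, read 6.77, 6.60 and 6.70 in anti-miR-137 cells, against 6.50, 6.43 and 6.50 in control cells. Its groups did not overlap, as in 6.9% of all tested probe sets. Its difference of 0.21 (0.04 to 0.37) had an unadjusted p of 0.0195 and an adjusted p of 1.00 in limma. An unadjusted p under 0.05 was found for 2.49% of all tested probe sets. ARID1B, a chromatin remodelling subunit, differed by -0.24 (-0.49 to -0.0030), with an unadjusted p of 0.0478 and an adjusted p of 1.00 in limma.

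Of the markers of the mesenchymal type of neuroblastoma, 5 of 9 were tested, and 2 of them, YAP1 (-0.65, adjusted p = 0.0329, limma) and VIM (-0.40, adjusted p = 0.0360), were called lower in replicate 3 than in replicate 1. Of all 12639 genes, 2.41% were called lower. The others did not pass: FN1 gave -0.36 (adjusted p = 0.0851), NOTCH3 -0.10 (adjusted p = 0.620) and SNAI2 0.38 (adjusted p = 0.295). The median of their deviations from the 6-array means was -0.21 (anti-miR-137) and -0.11 (control) for number 3 and -0.17 (anti-miR-137) and -0.09 (control) for number 2, against 0.24 (anti-miR-137) and 0.21 (control) for number 1. The arrays of number 1 were thus above those of both other numbers. The noradrenergic markers had 0 of 11 called, beside 5.37% of all 12639 genes, and a list of 11 cannot tell that share from 0. The part of these differences in those of MYC and LIN28B was not tested.

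**Figure D4:**
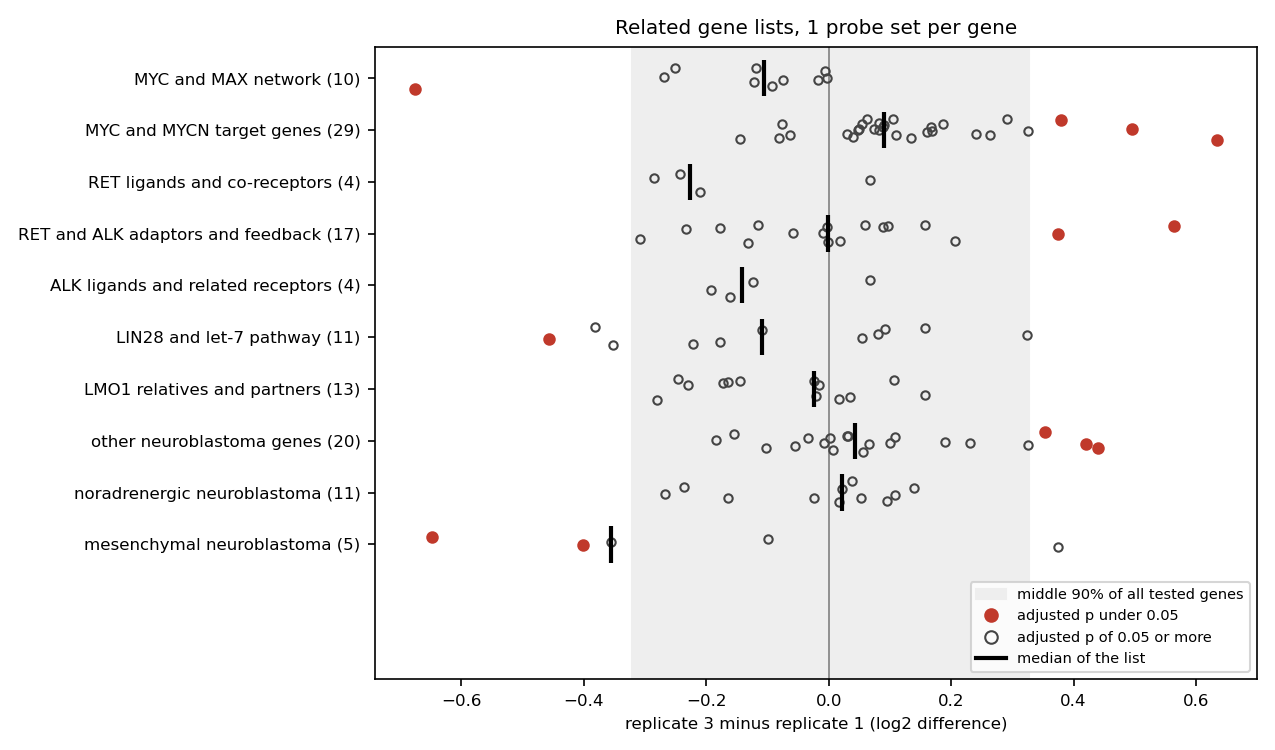
Replicate 3 minus replicate 1 (x axis, log2 units) for each tested gene of the related lists and of both neuroblastoma marker lists (rows, number of tested genes in brackets), with calls filled in red, list medians as black bars and the range between the 5th and 95th percentile of all 12639 genes shaded. MYCL (-0.68) and YAP1 (-0.65) lie furthest below 0 and MCM2 (0.63) furthest above.

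Genes most like each member over the 6 arrays were named by Pearson's r of their log2 values, as a description. EIF2A (0.992), NOA1 (0.992) and TNNT3 (0.991) were most like MYC, and STK26 (0.991), C2CD5 (0.990) and ANKRA2 (0.989) most like MYCN. NIT2 (0.993), TEAD3 (0.990) and TNNI2 (0.989) led for MAX, PRKCH (0.989), TLE3 (0.988) and BMP2 (0.987) for ALK, and ANXA5 (0.994), LSM6 (0.991) and TMEM39B (0.986) for RET. FBXO8 (0.986), CBLN4 (0.985) and QDPR (0.982) were most like LIN28B, and RHOBTB2 (0.987), JMJD7 (0.986) and AFDN-DT (0.984) most like LMO1. Members whose 6 values spanned little, such as RET, reached r as high as those that differed between replicates 3 and 1. A high r among 12639 genes over 6 arrays thus sets no gene apart. Among the members, r was 0.84 between MYC and MYCN, -0.59 between MYC and LIN28B and -0.90 between MYCN and ALK, over 6 arrays that share replicate numbers.

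Promoter windows of 300 bases, from 250 before to 50 after a transcript start, were taken from RefSeq (GRCh38.p14) for the 6 genes other than MYC, 10 windows in all. They were searched for the canonical E-box CACGTG, to which MYC and MYCN bind with MAX and which reads the same on both strands. It was found in 2 of the 10 windows, and in 2548 of 35116 windows of the same length (7.26%). The windows that hold it, 1 of LIN28B (chr6:104956857-104957156, plus strand) and 1 of ALK (chr2:29223774-29224073, minus strand), are shown with the motif in capitals.
LIN28B window: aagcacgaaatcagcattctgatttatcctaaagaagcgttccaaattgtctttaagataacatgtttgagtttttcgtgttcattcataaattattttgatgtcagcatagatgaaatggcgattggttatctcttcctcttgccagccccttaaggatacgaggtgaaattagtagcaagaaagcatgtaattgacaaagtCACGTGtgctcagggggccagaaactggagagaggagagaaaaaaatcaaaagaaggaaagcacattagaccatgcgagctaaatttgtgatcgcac
ALK window: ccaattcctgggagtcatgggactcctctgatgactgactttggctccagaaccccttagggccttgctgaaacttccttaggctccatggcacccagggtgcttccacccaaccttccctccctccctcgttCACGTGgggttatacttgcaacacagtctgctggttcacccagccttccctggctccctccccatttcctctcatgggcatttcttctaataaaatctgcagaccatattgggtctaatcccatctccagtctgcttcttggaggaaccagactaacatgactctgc
The first base of the motif is at position -47 from the start in LIN28B and at -117 in ALK. LIN28B and ALK each have a second window without the motif, upstream of the one shown (chr6:104940715-104941014 and chr2:29921537-29921836, in the same order). The motif was thus found only at the downstream start of each gene. A match in these letters does not show binding in these cells.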

How the data were processed

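Per the submitters' processing notes, the authors used RMA, run in R 3.0.1. The authors' deposited table holds normalized log2 intensities, 1 for each probe set and array, in which a change common to all transcripts would be lost. The table held 49495 probe sets, of which 102 were controls; 45278 had 1 gene symbol in the platform annotation, 1333 several and 2782 none. Probe sets with a mean at or above the 40th percentile of all means (5.69) were kept, which left 27514 of 12639 genes. limma 3.58.1 in R 4.3.3 (lmFit, eBayes, two-sided, Benjamini-Hochberg over all kept probe sets, threshold 0.05) was fitted with treatment as the only term, and with treatment and replicate number for contrasts between numbers and a moderated F test over the 3. Fits without the filter gave values for dim members.

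The members and lists were chosen with earlier results of these data known. Named were all member probe sets, per list the 3 genes with the smallest F p and the 2 with the smallest treatment p, and 3 genes most like each member. Marker genes and genes too dim to test were named from the lists after their values were seen. Deviations from the group means correlated between arrays of number 1 at 0.52 and of number 3 at 0.62. For number 2 the correlation was 0.040, below the 0.1 required of every pair. Numbers were therefore not taken as pairs in the treatment fit, and differences between numbers count as spread there. For MYC its standard error was 0.13, against 0.061 with the replicate block. No array was a copy of another (root mean square differences of 0.14 to 0.25 log2 units between arrays). The number of arrays limits the precision. Alternatives were other filters, 1 probe set per gene, no probe sets with cross-hybridisation suffixes, further normalization, a trended prior, array weights, the replicate block, no treatment term and each array left out.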

Additional observations from a re-analysis of the deposited data

How the results depend on the processing

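With treatment as the comparison, 0 of the members' probe sets passed under each alternative run, including the replicate block (0 of 19) and each left-out array (0 to 0). For the F test over replicate numbers, the main setting passed 0; 2 passed with the filter at the 60th percentile and 2 with the trended prior, 1 with 1 probe set per gene, 1 with array weights and 1 with replicate number as the only term, and 0 to 1 with an array left out. For replicate 3 against replicate 1, the main setting passed 2; 0 passed without the filter, 1 without probe sets of suffix _x_at or _s_at (the LIN28B probe set is one of them), 1 with quantile normalization, 1 with cyclic loess, 3 with array weights (MYCN 11719870_s_at gained, adjusted p = 0.0452), 4 with the filter at the 60th percentile and 4 with the trended prior, and 0 to 4 with an array left out. The 4 were MYC, LIN28B and 2 probe sets of MYCN in both the stricter filter and the trended prior, and MYC, both LIN28B probe sets and MYCN 11719870_s_at without replicate 2 of either group. Over all probe sets, 1498 passed in the main setting, 3 without the filter, 2967 with the stricter one, 4295 with the trended prior, 2693 with array weights, and from 0 to 3031 across the left-out arrays; 64.4% of the calls were higher in replicate 3, 56.5% after quantile normalization and 58.4% after cyclic loess. The F test passed 3 in the main setting, 0 without the filter, 96 without the suffixes, 320 with 1 probe set per gene, 598 with replicate number as the only term, 663 with array weights, 1735 with the stricter filter and 3128 with the trended prior. Adding the replicate block changed no call. Without anti-miR-137 replicate 1 or 3, or control replicate 1 or 3, 0 passed over all probe sets, where a lone array stands for its number and is assumed to vary like the others. The cause of these shifts was not tested.

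The direction of MYC (-0.44 to -0.33) and of both LIN28B probe sets between replicates 3 and 1 was the same under each alternative run. Reversals were found among values that passed no test. The MAX probe set 11754160_x_at turned with quantile normalization (-0.0084 for treatment, 0.031 for replicates), cyclic loess (-0.014 and 0.038) and array weights (-0.024 for treatment), and 11729189_x_at with array weights (0.039 for treatment). With an array left out, treatment differences ranged from -0.077 to 0.13 for MYC, -0.012 to 0.19 for MYCN 11719868_a_at, -0.16 to 0.047 for MYCN 11719869_a_at, -0.25 to 0.036 and -0.20 to 0.080 for LIN28B 11720292_at and 11720293_s_at, -0.096 to 0.056 for MAX 11729188_a_at, -0.033 to 0.067 for MAX 11754160_x_at, -0.023 to 0.032 for RET 11729917_at, and -0.011 to 0.086 and -0.028 to 0.12 for ALK 11740853_a_at and 11750678_a_at. Differences of replicate 3 against 1 ranged from -0.43 to 0.12 for MYCN 11719868_a_at, -0.18 to 0.035 for MYCN 11750948_a_at, -0.079 to 0.069 for LMO1, -0.065 to 0.19 for MAX 11729189_x_at, -0.12 to 0.11 for MAX 11754160_x_at and -0.015 to 0.20 for RET 11733419_a_at.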
